A study of Mus musculus with 25 samples.

Results

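The fragments described here were called for Notch1 (N1) together with each of its co-activators MAML and p300, but not for N1 together with RBP or with a further copy of N1. They were selected on the deposited calls themselves, as fragments that stand with identical chromosome, start and end in both the N1/MAML and the N1/p300 list and in neither the N1/RBP nor the N1/N1 list, on chromosomes 1 to 19 and X. Membership of the Mef2c/MAML and Mef2c/p300 lists was left free. The rule found 1102 fragments among the 96405 distinct fragments of the 6 lists of protein pairs, which is 12.8% of the 8629 fragments shared by N1/MAML and N1/p300. They are called co-activator-only fragments below. The name stands for list membership and not for a measured absence of RBP.

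The study used split DamID (SpDamID), in which complementary inactive pieces of the bacterial adenine methylase Dam are fused to a pair of proteins and methylate GATC sites where both proteins meet on DNA. All 25 libraries came from mK4 cells, a line of mouse metanephric mesenchyme from the embryonic kidney, and the methylated DNA was cut at GATC sites with DpnI, amplified and sequenced. The lists came from 3 libraries each for N1-D/RBP-AM-Ert2 (N1/RBP), N1-D/MAML-AM-Ert2 (N1/MAML) and N1-D/p300-AM-Ert2 (N1/p300), 2 for N1-D/N1-AM-Ert2 (N1/N1), and 1 each for Mef2c-D/MAML-AM-Ert2 (Mef2c/MAML) and Mef2c-D/p300-AM-Ert2 (Mef2c/p300). Each was set against the DAM control, which has 3 libraries.

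The D and AM parts name the pieces of Dam, and Ert2 is the tag on the second fusion of every pair. The labels give no ligand, dose or time of treatment. Open chromatin was measured by FAIRE, which recovers DNA that is not bound up with protein after cross-linking, in 3 libraries titled Control, 3 titled N1wt and 1 N1wt input. N1 binding was measured by ChIP on a myc tag in 1 library with 1 input. The strain label is CD1 throughout, except CD2 for 1 of the N1/N1 libraries and CD3 for the Mef2c/MAML library. The proteins are fusions introduced into 1 cell line, so the calls describe these constructs in these cells.

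Notch1 is a receptor whose intracellular domain is released on activation and moves to the nucleus. There it binds RBP, the DNA-binding protein of the pathway, and the joint surface of both recruits MAML, which in turn brings in p300, a histone acetyltransferase. Paired sites allow a further such complex to bind beside the first, and contacts between the N1 molecules hold the dimer together. Mef2c is a DNA-binding factor of the MADS-box family that is also known to work with MAML and p300, and here its pairs serve as a comparison without N1. No sequence of a fragment is shown, because the coordinates are of mouse build mm9 and no genome of that build was used here.

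Every list holds 1 whole-number score per fragment for all its libraries together, so no spread between libraries can be given and no difference is tested. Shares carry exact Clopper-Pearson 95% intervals, which cover counting error over fragments only. Neighbouring fragments are not independent, and all 6 lists share the DAM control. Fragments are cut at GATC sites, so their length is set by the genome and not by the protein.

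The rule used the presence of N1/MAML and N1/p300 calls and the absence of N1/RBP and N1/N1 calls, so these are given as a description. Among co-activator-only fragments the N1/MAML score ran from 2 to 793, with a median of 411 and quartiles at 258.5 and 535. The N1/p300 score ran from 1 to 746, with a median of 315 and quartiles at 157 and 437. In the 5730 fragments that stand in all 4 N1 lists the medians were 486 for N1/MAML and 504 for N1/p300. Over all lengths both median scores were thus lower in the co-activator-only fragments, by more for p300 than for MAML. Among fragments over 800 bp the N1/MAML order was the opposite, with a median of 526 in co-activator-only fragments and 342 in those of all 4 N1 lists. The N1/p300 medians there were 293 and 522.

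A few fragments lie right at the edge of the rule. The lowest N1/MAML score, 2, belongs to 4 members, of which the fragment at chromosome 15 (mm9), 6524946 to 6525578, also has an N1/p300 score of only 12. The lowest N1/p300 score, 1, belongs to 2 members, at chromosome 7, 17611909 to 17612335, and chromosome 15, 11295216 to 11296979, with N1/MAML scores of 399 and 495. Just outside the rule lies the fragment at chromosome 10, 67737821 to 67738293. Its N1/RBP score is 6, beside 463 for N1/MAML and 483 for N1/p300. At chromosome 10, 12685425 to 12685884, an N1/N1 score of 8 kept the fragment out. Low scores were few among the fragments left out. Members just under the authors' threshold for N1/RBP or N1/N1 have no score in those lists and cannot be counted. The scale of the score is not stated, so these counts do not show how many fragments lie near the edge. Of the 7527 co-activator fragments with an N1/RBP or N1/N1 call, 95 (1.26%) had no score above 50 in those lists and 181 (2.40%) had none above 100.

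The co-activator-only fragments fell into 2 groups by length with few fragments between them. Their median length was 400 bp, with quartiles at 337 and 1689 bp and a range from 220 to 50730 bp. The range of 301 to 400 bp held 436 of them (39.6%), the range of 2001 to 3000 bp held another 149 (13.5%), and the range of 801 to 1000 bp held only 8 and the one from there to 1500 bp only 12. A limit of 800 bp, set after the lengths were seen, divided them into 791 short fragments (71.8%, median 363 bp) and 311 long ones (28.2%, median 2619 bp).

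**Figure D1:**
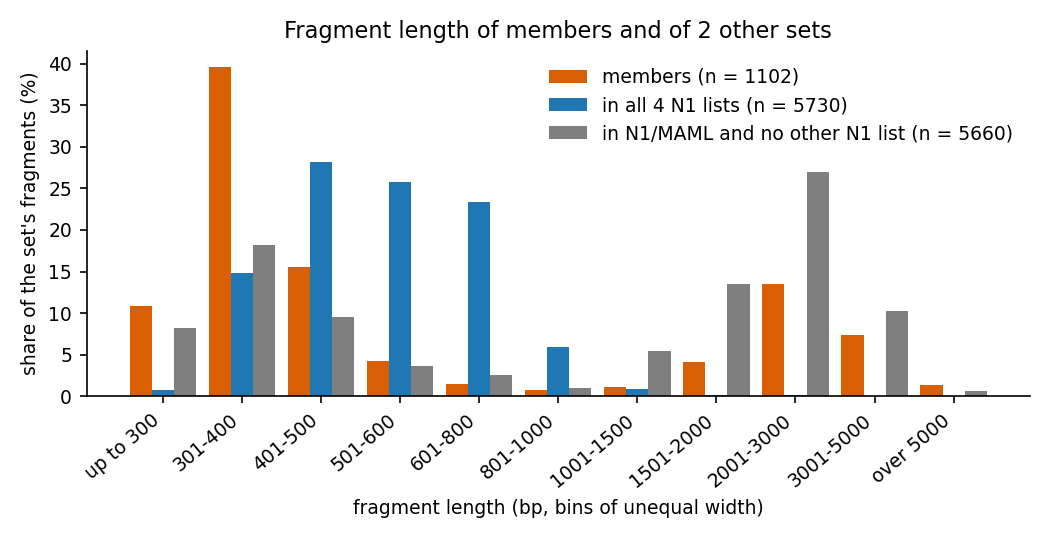
Share of fragments (y axis, percent) per bin of fragment length (x axis, bp, bins of unequal width) for the co-activator-only fragments (members), the fragments in all 4 N1 lists and those in N1/MAML and no other N1 list. The co-activator-only fragments form a peak below 500 bp and a smaller one between 2000 and 3000 bp, with few fragments from 601 to 1500 bp.

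The comparison classes had other shapes, as the distribution of lengths shows. Fragments in all 4 N1 lists had a median of 521 bp, and 413 of the 5730 (7.21%) were over 800 bp. Fragments in N1/RBP and N1/N1 but in neither co-activator list were longer, with a median of 876 bp, and mostly between 601 and 1500 bp. Co-activator fragments with an N1/N1 call but no N1/RBP call resembled the co-activator-only set in length, with a median of 370 bp in all, 359 bp in the 738 short ones and 2568 bp in the 82 long ones. Those with an N1/RBP call but no N1/N1 call had a median of 466 bp and held 33 long fragments among 977.

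The N1/MAML and N1/p300 lists held similar numbers of fragments over 800 bp, 4363 and 4325, but not of the longest ones. The N1/MAML list held 3486 fragments over 1500 bp (21.1% of it), whereas the N1/p300 list held 634 (2.84%). Both lists shared 403 such fragments, and 291 of these (72.2%) were co-activator-only. Of the shared fragments of 800 bp or less, 791 of 7790 (10.2%) were co-activator-only. A co-activator fragment over 1500 bp was thus mostly without an N1/RBP or N1/N1 call, and one of 800 bp or less mostly with one.

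Membership also ran along the N1/p300 score. Across the quartiles of that score, from lowest to highest, 25.1%, 15.4%, 7.27% and 3.11% of co-activator fragments were co-activator-only. Across the quartiles of the N1/MAML score the shares fell less, from 16.5% to 8.50%. A fragment with a strong N1/p300 score therefore seldom lacked both N1/RBP and N1/N1.

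Short and long fragments differed in their balance of MAML and p300. The short ones had medians of 357 for N1/MAML and 325 for N1/p300, and N1/MAML was the higher score in 440 of 791 (55.6%). The long ones had medians of 526 and 293, and N1/MAML was the higher in 265 of 311 (85.2%), with a median difference of 196. In the fragments of all 4 N1 lists N1/MAML was the higher in 2766 of 5730 (48.3%), with a median difference of -6. Whether a score of a given size means the same in both lists was not tested.

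**Figure D2:**
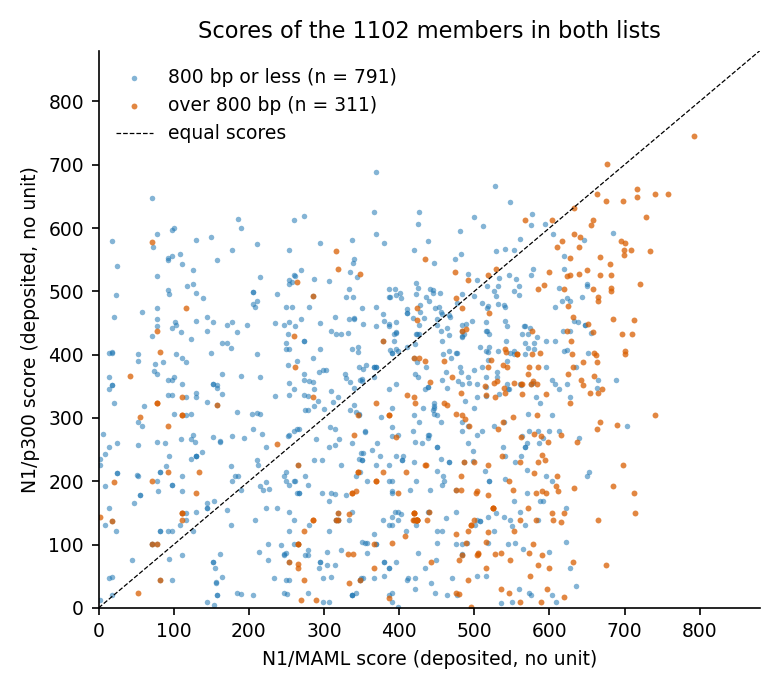
N1/MAML score (x axis) against N1/p300 score (y axis), both as deposited and without unit, for each short (791) and long (311) co-activator-only fragment. The long fragments lie mostly below the line of equal scores, with N1/MAML the higher in 265 of 311, and the short ones spread over both sides, with N1/MAML the higher in 440 of 791.

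In the plot of both scores the co-activators tracked each other loosely. Across short fragments Pearson's r was 0.12 and Spearman's rho 0.13 (n = 791). Across long fragments they were 0.37 and 0.43 (n = 311), and across the fragments of all 4 N1 lists 0.37 and 0.42 (n = 5730). These are descriptions across fragments, which are not replicates and share libraries and the DAM control.

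The Mef2c pairs were not part of the rule and show whether the co-activators also meet a factor outside the Notch complex at the same fragments. Mef2c/MAML held 607 co-activator-only fragments (55.1%, interval 52.1 to 58.0), against 39.3% of the 56419 fragments of the 4 N1 lists. Mef2c/p300 held 67 (6.08%, interval 4.74 to 7.66), against 20.4% of those fragments. The Mef2c/MAML share lay above that background and the Mef2c/p300 share under it. Fragments in Mef2c lists alone are left out of this background, since they carry a Mef2c call by construction. Each Mef2c list rests on 1 library.

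Length divided this result sharply. Of the short fragments, 605 (76.5%) were in Mef2c/MAML and 63 (7.96%) in Mef2c/p300, where the shares of all short fragments of the N1 lists were 61.1% and 26.5%. Of the long fragments, 2 (0.643%) were in Mef2c/MAML and 4 (1.29%) in Mef2c/p300, where those of all long fragments of the N1 lists were 6.84% and 11.2%. Short fragments in all 4 N1 lists were in Mef2c/MAML in 94.8% of cases and in Mef2c/p300 in 51.9%. Short co-activator fragments with N1/RBP and no N1/N1 call had 90.0% and 18.1%, and those with N1/N1 and no N1/RBP call 80.1% and 15.6%. Over all short fragments the members thus had the lowest shares of these co-activator classes. Over 400 and up to 800 bp the class with N1/N1 and no N1/RBP call had 70.0% in Mef2c/MAML, close to the members. Mef2c/p300 calls were rarer at 400 bp or less in general, with 4.68% of members against 9.53% of fragments of the N1 lists. Over 400 and up to 800 bp it was 15.7% against 30.4%. For Mef2c/MAML the shares in these 2 ranges were 79.0% against 70.3% and 70.6% against 59.0%. So the short co-activator-only fragments mostly carried a Mef2c/MAML call and seldom a Mef2c/p300 call, and the long ones had almost no Mef2c call.

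By joint membership, 546 (49.5%) were in Mef2c/MAML alone, all of them short. Another 489 (44.4%) were in neither Mef2c list, made up of 182 short and 307 long fragments. Both Mef2c lists held 61 (5.54%), and 6 were in Mef2c/p300 alone. In the 607 fragments with a Mef2c/MAML call the median Mef2c/MAML score was 456 and the median N1/MAML score 369, and the Mef2c score was the higher in 377 (62.1%).

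Open chromatin was measured independently of the rule. Total FAIRE peaks overlapped 342 co-activator-only fragments by 1 bp or more (31.0%, interval 28.3 to 33.9), against 19.3% of all fragments. Of the 52818 fragments outside the N1/RBP and N1/N1 lists, where the members lie by rule, 9.11% met them. Fragments in all 4 N1 lists reached 60.2%, those in N1/RBP and N1/N1 without a co-activator call 34.8%, and those in N1/MAML alone among the N1 lists 16.6%. The share of co-activator-only fragments lay above both of these backgrounds and well under that of fragments with all 4 calls. Of the 56419 fragments of the 4 N1 lists 28.2% met total FAIRE, just under the interval of the members.

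The open fragments were almost all short. Of the short fragments 314 of 791 (39.7%, interval 36.3 to 43.2) met total FAIRE, against 18.95% of all short fragments and 9.62% of those outside N1/RBP and N1/N1. Of the long ones 28 of 311 (9.0%, interval 6.07 to 12.7) did, against 20.3% of all long fragments and 6.49% of those outside N1/RBP and N1/N1. The short set lay above both of its backgrounds. Short fragments of the 4 N1 lists, which are longer (median 535 bp), met total FAIRE in 31.6% of cases. The long set lay below the share of all long fragments, and its interval holds that of long fragments without an N1/RBP or N1/N1 call. Of the long fragments in all 4 N1 lists, 64.9% met total FAIRE. Fragments in N1/RBP and N1/N1 without a co-activator call met it in 31.7% of short and 36.8% of long cases. Their short fragments are longer than the short members (median 647 against 363 bp). At 400 bp or less they met it in 49.1% of cases (26 of 53), beside 46.2% for the members. Over 400 and up to 800 bp it was 31.3% (709 of 2262), beside 24.3%. The members thus lay above this class over all short fragments, but not within either short range, and below it among long fragments.

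Within both ranges up to 800 bp the order of the members, the fragments in all 4 N1 lists and all fragments held, but not over 1500 bp. Of fragments of 400 bp or less, 257 of 556 co-activator-only ones (46.2%) met total FAIRE, against 67.3% of those in all 4 N1 lists and 26.6% of all. Over 400 and up to 800 bp it was 57 of 235 (24.3%) against 58.3% and 17.01%. Over 1500 bp 23 of 291 members (7.90%) met total FAIRE, which is below the 16.1% of all fragments. Of the few fragments of that length in all 4 N1 lists, 36% did (9 of 25). The co-activator fragments with N1/RBP and no N1/N1 call lay above the members in both short ranges, with 55.1% (119 of 216) at 400 bp or less and 33.2% (242 of 728) over 400 and up to 800 bp. Over all short fragments they met total FAIRE in 38.2% of cases, beside 39.7% for the members, which are shorter (median 363 against 460 bp). Short co-activator fragments with N1/N1 and no N1/RBP call met it in 55.7% of cases (411 of 738).

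Among short fragments the open share was larger at high than at low N1/MAML scores, and no such rise was seen along the N1/p300 score. In the lowest quartile of N1/MAML scores 32.3% of short fragments met total FAIRE (64 of 198, interval 25.9 to 39.3), and in the highest 50.3% (97 of 193, interval 43.0 to 57.5). For N1/p300 the shares were 39.8% in the lowest quartile and 31.5% in the highest, with overlapping intervals. Among long fragments the N1/MAML order was the opposite, with 12.8% in the lowest quartile (10 of 78) and 3.85% in the highest (3 of 78), and those intervals overlap.

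Openness also differed by Mef2c membership. Of the 546 fragments in Mef2c/MAML alone 45.6% met total FAIRE (249, interval 41.4 to 49.9). Of the 61 in both Mef2c lists, 59 of them short, 14.8% did (9, interval 6.98 to 26.2). Of the 182 short fragments in neither Mef2c list 31.3% did (57, interval 24.7 to 38.6). The short fragments with Mef2c/MAML and without Mef2c/p300 were therefore the most often open among these classes. They were also the shortest, with a median of 355 bp. Short fragments in both Mef2c lists had a median of 432 bp and those in neither 364.5 bp. These classes were not compared at like length.

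**Figure D3:**
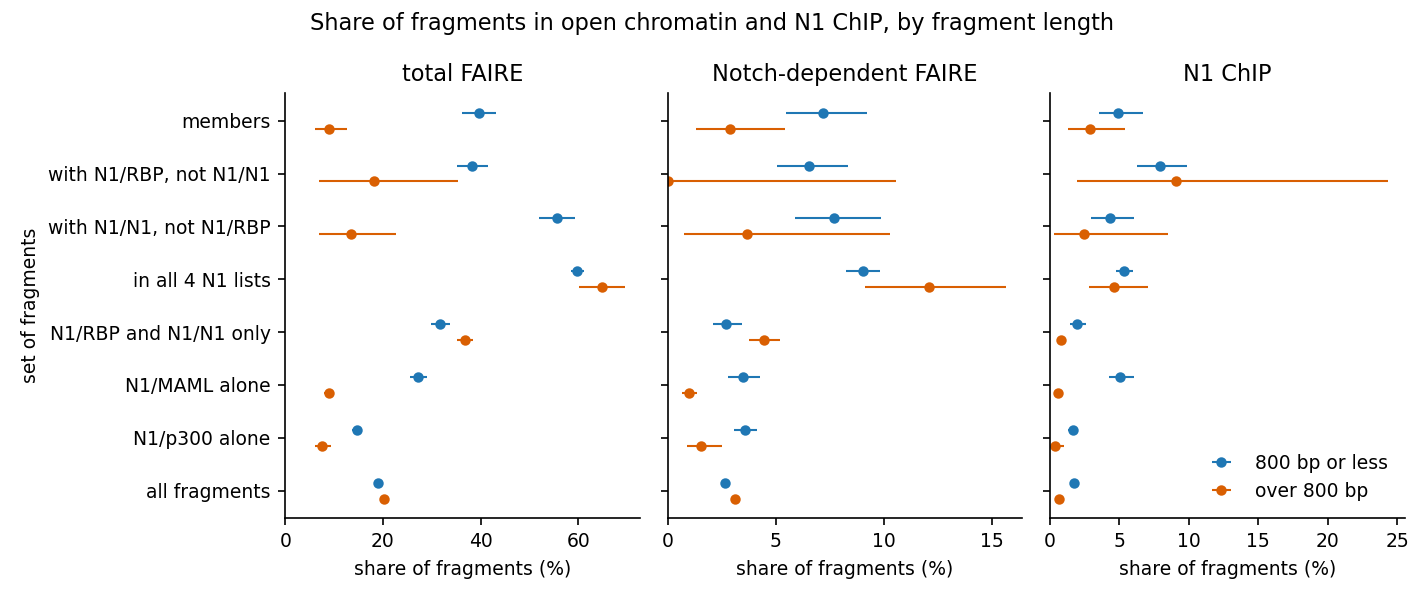
Share of fragments (x axis, percent, with exact 95% intervals) that overlap total FAIRE, Notch-dependent FAIRE and N1 ChIP regions, by class and by length (800 bp or less, over 800 bp). Of the co-activator-only fragments 39.7% of the short and 9.0% of the long ones met total FAIRE.

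Notch-dependent FAIRE peaks are a separate deposited list, and how they were picked is not stated in the labels or headers. They met 66 co-activator-only fragments (5.99%, interval 4.66 to 7.56), against 2.8% of all fragments and 9.25% of those in all 4 N1 lists. By length 57 short (7.21%) and 9 long fragments (2.89%) were met, as the plot of shares by class and length shows, against 2.67% of all short and 3.12% of all long fragments. At 400 bp or less it was 51 of 556 (9.17%, interval 6.91 to 11.9) against 4.06% of all, and over 400 and up to 800 bp 6 of 235 (2.55%, interval 0.943 to 5.47) against 2.32%. Among these ranges the fragments of 400 bp or less alone had an interval above the share of all fragments of their length. Of fragments of the 4 N1 lists 7.07% were met at 400 bp or less and 3.97% over 400 and up to 800 bp, both within the intervals of the members. Of long fragments outside N1/RBP and N1/N1 1.02% were met, below the interval of the long members (1.33 to 5.42). The reading thus depends on the background. These 66 lie in 65 peaks, whose scores run from 59.0 to 627.5, and 63 of them also met total FAIRE.

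Among open fragments the Notch-dependent share was 18.4% for co-activator-only ones (63 of 342, interval 14.5 to 22.9). It was 15.2% for those in all 4 N1 lists and 14.0% for all fragments. The interval holds the first of these values and lies above the second, so an open co-activator-only fragment was in a Notch-dependent peak about as often as one with all 4 calls. Of the 66, 46 were in Mef2c/MAML and 20 in neither Mef2c list.

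N1 ChIP regions met 48 co-activator-only fragments (4.36%, interval 3.23 to 5.73), against 1.41% of all fragments. The share was 5.29% of fragments in all 4 N1 lists and 7.98% of co-activator fragments with N1/RBP and no N1/N1 call. All 48 ChIP regions have the same start and end as the fragment, so the deposited ChIP regions here are GATC fragments too. Their ChIP over input ratio ran from 10.4 to 127.8 with a median of 15.1, and in 35 of them the input stood at the fixed value 0.1, where the ratio follows the ChIP signal alone. Of all fragments outside N1/RBP and N1/N1, 0.848% met ChIP regions. By length 39 of the 48 were short (4.93%, against 1.71% of all short fragments). The other 9 were long (2.89%, interval 1.33 to 5.42, against 0.620% of all long fragments). Short fragments in N1/MAML alone among the N1 lists reached 5.07%, so the short share was not particular to the members. Of the 48, 28 also met total FAIRE. The interval of the co-activator-only share holds that of fragments in all 4 N1 lists, and the intervals do not show whether the 2 classes differ.

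The rule set the N1/RBP and N1/N1 calls to absent at the fragment itself but said nothing of its neighbours, and many members lie beside such a call. The median distance to the nearest N1/RBP or N1/N1 fragment was 2612 bp. An N1/RBP or N1/N1 fragment was directly adjacent for 245 (22.2%), against 9.83% of all fragments outside these 2 lists, and within 1000 bp for 470 (42.6%), against 23.8%. On the other side, 389 (35.3%) were over 10000 bp away.

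**Figure D4:**
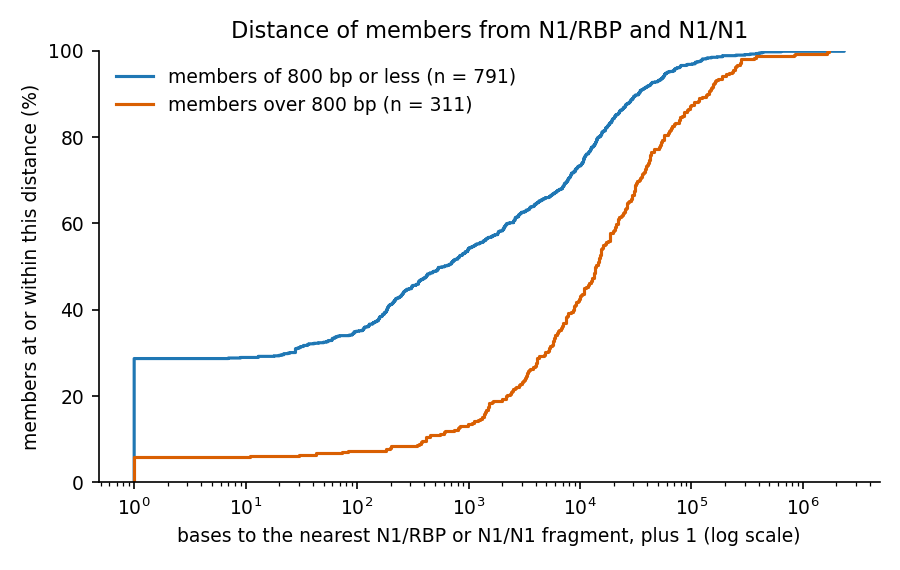
Cumulative share of members (y axis, percent) by distance in bp, plus 1, to the nearest N1/RBP or N1/N1 fragment (x axis, log scale), for short and long co-activator-only fragments (members). Of the short fragments 54.1% have one within 1000 bp, and of the long fragments 13.5%.

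Again the lengths differed, as the curves of distance show. The short fragments had a median distance of 604 bp, 227 of 791 (28.7%) were adjacent and 428 (54.1%) within 1000 bp. The long ones had a median of 13789 bp, 18 of 311 (5.79%) were adjacent and 178 (57.2%) were over 10000 bp away. Short fragments in N1/MAML alone among the N1 lists came near to the short co-activator-only ones, with 44.6% within 1000 bp, and short fragments in N1/p300 alone had 31.4%. Short fragments with an N1/MAML call alone thus also lay near such calls often, and the difference between these classes was not tested.

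Adjacent fragments carried several N1 calls more often than N1/RBP and N1/N1 fragments at large, without a test of the difference. The 245 members touched 272 distinct N1/RBP or N1/N1 fragments, and 27 members were flanked on both sides. Of the 272, 150 (55.1%) were in both N1/RBP and N1/N1, 185 (68.0%) in N1/MAML or N1/p300 and 81 (29.8%) in all 4 N1 lists. The same shares of all 43587 N1/RBP or N1/N1 fragments were 38.2%, 40.02% and 13.1%. Their median length was 587.5 bp, longer than the 363 bp of the short members, and their median scores were 376 for N1/RBP and 354 for N1/N1.

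Openness and nearness went together. Short fragments in total FAIRE had a median distance of 179.5 bp to the nearest N1/RBP or N1/N1 fragment, and short fragments outside it 2166 bp. The 342 open members lie in 338 peaks, and 189 members (55.3%) share their peak with an N1/RBP or N1/N1 fragment, 75 of them with a fragment in all 4 N1 lists. Over all total FAIRE peaks 51.1% hold an N1/RBP or N1/N1 fragment, which is a share of peaks and not of members. Peaks that hold members were also longer than all peaks (median 1089 against 903 bp). Of the short open members 183 of 314 (58.3%) shared a peak in this way, and of the long open members 6 of 28 (21.4%). Members with no N1/RBP or N1/N1 fragment within 1000 bp met total FAIRE in 18.4% of cases (116 of 632, interval 15.4 to 21.6), against 5.12% of all fragments that are neither in those lists nor within 1000 bp of one.

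The long fragments were unevenly spread over the genome. Chromosome 8 held 111 co-activator-only fragments (1.66% of its fragments) and chromosome 15 held 105 (2.10%), where the median chromosome had 1.04%. Of those on chromosome 15, 72 were long. Chromosome X held 17 (0.631%).

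On chromosome 8 the members formed a stretch. With members up to 5000 bp apart joined, 20 lie at 126076351 to 126130589 and another 4 at 126137401 to 126147613. Beyond these, 28 stretches held 2 members each, and 1022 members stood alone. Joining up to 10000 bp, a limit set after the values were seen, gave 26 members from 126062773 to 126147613. This span of 84841 bp held 50 fragments in the 6 lists, of which 48 were 1600 to 1800 bp long, and 98.2% of it was covered by them. Fragment starts followed each other at a median of 1697 bp, with quartiles at 1687 and 1707 bp, so the cut sites recur at an almost even step.

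All 50 fragments of the stretch were in N1/MAML, with a median score of 563.5, and 27 were in N1/p300, with a median of 273. One was in N1/RBP, with a score of 37, and none was in N1/N1 or in a Mef2c list, nor did any meet a FAIRE or ChIP region. The name of the deposited ChIP table says that repeats were masked, so the absence of ChIP regions from an evenly repeating stretch is not read as a result. The stretch is therefore N1/MAML throughout, and, apart from the fragment in N1/RBP, its N1/p300 call decided whether a fragment counts as co-activator-only. In the RefSeq table for GRCm38.p6, a later mouse build, 42 genes of the 5S ribosomal RNA family n-R5s stand on chromosome 8 with a median start-to-start step of 1701 bp. The builds differ, so whether these genes lie in the stretch was not tested.

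**Figure D5:**
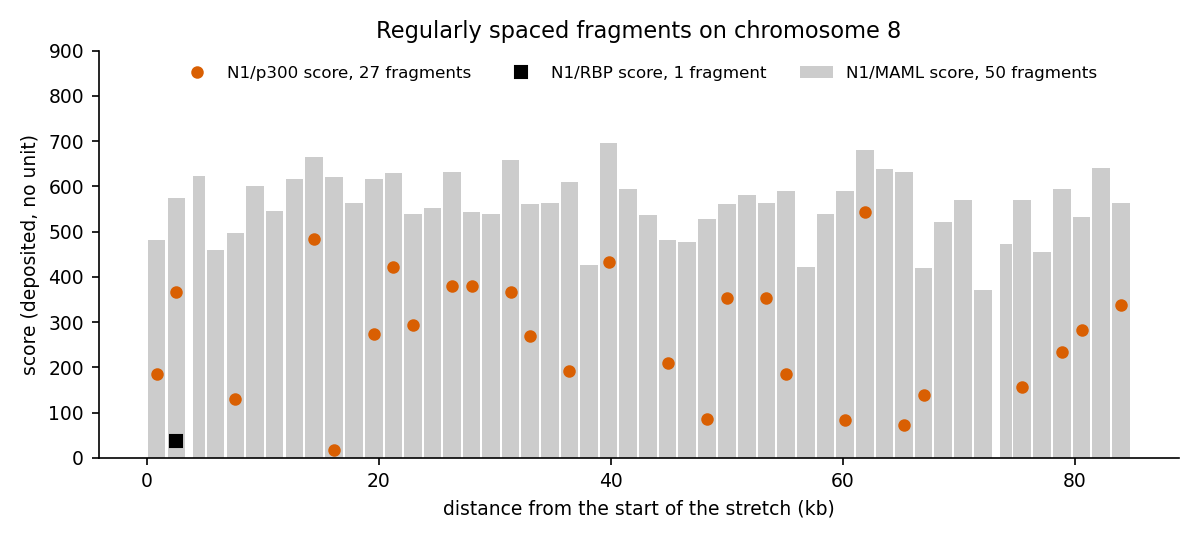
N1/MAML and N1/p300 score (y axis) of each of the 50 fragments in the chromosome 8 stretch by distance in kb from its start (x axis), with the 1 N1/RBP score as a square. Every fragment has an N1/MAML score, 27 have an N1/p300 score, and the N1/p300 median of 273 lies below the N1/MAML median of 563.5.

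The plot of scores along the stretch shows fragments with and without an N1/p300 call interspersed along it. How the authors treated reads that map to several places is not stated in the labels or headers, and its part in these calls was not tested.

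A window on chromosome 15 from 8000001 to 17000000, also picked after the values were seen, held 62 members, 60 of them long with a median over all 62 of 2210 bp. It held 5.63% of the co-activator-only fragments and 1.53% of all fragments. Of the lists it held 1.93% of N1/MAML, 1.27% of N1/p300, 0.955% of N1/RBP, 1.27% of N1/N1, 1.47% of Mef2c/MAML and 2.01% of Mef2c/p300, so no single list was as concentrated there. Only 2 of the 62 met total FAIRE. A further 13 members, 11 of them long, start below position 3250000 of their chromosome, which holds 1.18% of members and 0.251% of all fragments.

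Most shares stayed within their intervals without these 2 places, but the Mef2c/MAML share rose above its own. Without the chromosome 8 stretch and the chromosome 15 window 1014 members remained, of which 33.5% met total FAIRE and 59.7% were in Mef2c/MAML, against 31.0% and 55.1% with them. The 225 long fragments among them met total FAIRE in 26 cases (11.6%). Members alike in length and score also stand elsewhere and were not left out. On chromosome 3 long members of the same few lengths follow each other with equal or similar scores. Chromosome 2 holds short members of equal length and similar scores, at an equal distance from an N1/RBP or N1/N1 fragment. Long members of an identical length also recur across several chromosomes. Whether reads that map to several places play a part in these calls was not tested.

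Members were ranked by the mean of their ranks in the N1/MAML and N1/p300 lists. The first 10 were all over 2000 bp long, 9 were in neither Mef2c list and 0 met total FAIRE. First came chromosome 15 (mm9), 83868719 to 83871479, a fragment of 2761 bp with an N1/MAML score of 793 and an N1/p300 score of 746, rank 10 and rank 37 in those lists. It is also the only one of the 10 with Mef2c calls, at 463 for Mef2c/MAML and 422 for Mef2c/p300, and the nearest N1/RBP or N1/N1 fragment is 31555 bp away. Second came chromosome 13, 100671117 to 100673635, with scores of 677 and 701, and then chromosome 1, 192603493 to 192606742, with 717 and 661.

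At rank 4, chromosome 18, 3114060 to 3120507, is a fragment of 6448 bp with scores of 758 and 654 and the only one of the 10 with an N1 ChIP region, at a ratio of 50.9. The next were chromosome 7, 4599812 to 4602914 (741 and 653), and chromosome 19, 53597214 to 53601196 (717 and 649). Chromosome 15, 16655974 to 16659139 (698 and 643), lies in the window described above. The last of the 10 were chromosome 10, 119220620 to 119223541 (664 and 654), chromosome 6, 83165070 to 83169024 (676 and 642), and chromosome 1, 5099360 to 5104807 (728 and 618). The first members by rank were thus long fragments outside total FAIRE peaks, as most long members are, and among the first 50 there were 38 long ones and 9 in total FAIRE. Of the 327 members with both scores at or above their list median, 33.3% met total FAIRE, beside 31.0% of all members.

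The members in Notch-dependent FAIRE were of the other kind. The first by rank was chromosome 9, 70790495 to 70790809, a fragment of 315 bp with scores of 684 for N1/MAML, 592 for N1/p300 and 545 for Mef2c/MAML. It lies within a Notch-dependent peak at 70790214 to 70791117 with a score of 94.2, and the nearest N1/RBP or N1/N1 fragment is 53135 bp away. The second, chromosome 2, 145109755 to 145110107, had scores of 646, 581 and 456, in a peak of score 190.2 with an N1/RBP or N1/N1 fragment 875 bp away. The third, chromosome 7, 120277290 to 120277572, had scores of 594, 606 and 206 in a peak of score 170.5, with the nearest such fragment 11012 bp away. These 3 were short, open, shared with Mef2c/MAML, and had no adjacent N1/RBP or N1/N1 fragment.

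In the next 4 the N1/RBP or N1/N1 call stood closer. Chromosome 2, 104704833 to 104705224, had scores of 547 for N1/MAML, 641 for N1/p300 and 625 for Mef2c/MAML, and lay 335 bp from one. Chromosome 15, 101847036 to 101847358 (620, 535 and 403), lay 203 bp from one and met its Notch-dependent peak, 101845336 to 101847036, by a single base. Chromosome 11, 86195080 to 86195367 (650, 509 and 569), lay 222 bp away, and chromosome 3, 144643161 to 144643501 (553, 565 and 478), was adjacent. Each of these 4 is under 400 bp long.

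The remaining 3 of the 10 had no Mef2c call. Chromosome 2, 38538163 to 38538484, had an N1/MAML score of 512 and an N1/p300 score of 603, in a Notch-dependent peak of score 380.4, the highest of the 10, and lay 66 bp from an N1/RBP or N1/N1 fragment. Chromosome 1, 122655440 to 122655706 (578 and 536), was adjacent to one. Chromosome 15, 13165665 to 13168950 (619 and 504), was the only long one, with 3286 bp inside a broad peak from 13153275 to 13185806. Of all 66, 41 had an N1/RBP or N1/N1 fragment within 1000 bp and 15 were over 10000 bp away.

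Among members with an N1 ChIP region the first by rank after the chromosome 18 fragment were chromosome 5, 32249677 to 32251960 (scores of 633 and 632, ratio 13.8), and chromosome 8, 14306370 to 14307369 (641 and 586, ratio 19.7). Chromosome 3, 115590724 to 115590985, is short, with 262 bp, scores of 605 and 591 and a ratio of 38.7. It also lies in a total FAIRE peak and 127 bp from an N1/RBP or N1/N1 fragment. Chromosome 10, 70621734 to 70622060 (532 and 509, ratio 14.0), has a Mef2c/MAML call of 375. Of these 5, then, 1 met open chromatin.

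Members in Mef2c/p300 without Mef2c/MAML numbered 6 and none met FAIRE or ChIP regions. The first by rank was chromosome 2, 146409540 to 146409979, with scores of 439 for N1/MAML, 580 for N1/p300 and 221 for Mef2c/p300, and it lies 440361 bp from the nearest N1/RBP or N1/N1 fragment. The next was chromosome 5, 144429561 to 144432428, whose Mef2c/p300 score is 3, and then chromosome 2, 79238746 to 79239111, with 76. Of those in both Mef2c lists the chromosome 15 fragment that ranks first came before chromosome 5, 91063571 to 91063903 (500, 617, 460 for Mef2c/MAML and 181 for Mef2c/p300), and chromosome 6, 35406199 to 35406594 (559, 509, 641 and 261).

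The longest member, chromosome 17, 13448818 to 13499547, spans 50730 bp with scores of 708 for N1/MAML and 566 for N1/p300 and no other call. The shortest, chromosome 12, 16860481 to 16860700, has 220 bp and scores of 319 and 138, meets total FAIRE, and lies 191 bp from an N1/RBP or N1/N1 fragment. The nearest genes of the named fragments are not given, since no annotation of build mm9 was used here.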

How the data were processed

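The data used were 9 region lists that pool the libraries of a group. In the 6 SpDamID lists the authors gave every fragment a whole-number score for the pair of proteins against Dam. Per the file headers, these calls reach a confidence level of 0.999 or more, and the scale of the score is not stated. Lists were matched to protein pairs by initials, since no label spells the short names out. For FAIRE the authors deposited MACS peaks with a score, per the file headers. The deposited ChIP table, which has no header, gives a signal for the ChIP, a signal for the input and their ratio, and its name states a ratio of 10 and masked repeats. The build is mm9, per the submitters' processing notes, with the aligner and the caller settings not given in the sources used here. Depth per library is unknown.

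Regions were compared as positions with both ends included, and an overlap of 1 bp or more counted. Adjacent means a distance of 0 bp. Python 3.11.15, pandas 2.3.3, numpy 2.4.6 and scipy 1.17.1 were used. Overlap and distance functions were checked against a plain loop on simulated data, with 0 differences in 1200 cases. Libraries were grouped by their titles, and the titles are all that separates replicates. No test was run, since no list has a value per library, and no motif search or gene assignment was made.

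Named fragments are the first 10 by mean rank in N1/MAML and N1/p300, the first 3 in each class of Mef2c membership, the first 10 in Notch-dependent FAIRE, the first 5 in N1 ChIP, the 5 stretches with the most members, those with the lowest score in each list, and the longest and shortest. The 3 stretches after the chromosome 8 ones hold 2 members each and are given by that count. The members and classes were chosen with earlier results of these data known. For the Mef2c lists the background is the fragments of the 4 N1 lists, not of all 6 as first planned, since fragments in Mef2c lists alone carry such a call by construction. Alternatives covered overlap, scores, length, distance and single lists of the rule.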

Additional observations from a re-analysis of the deposited data

How the results depend on the processing

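Of 65 alternative values 32 stayed within the interval of the reported share, or within 1.5 times the reported number, and 33 moved. The total FAIRE share of 31.0% was 27.7% when the overlap had to reach 50% of the smaller region, 27.04% by fragment centre, 17.1% with peaks from their median score up, 18.4% for members with no N1/RBP or N1/N1 fragment within 1000 bp, and 24.3% at 400 to 800 bp. The Notch-dependent share was 2.99% with peaks from their median score up, 8.56% for members with both scores at or above the list median, 3.96% with no N1/RBP or N1/N1 fragment near and 2.47% at 400 to 800 bp. The ChIP share was 3.01% with none near. The Mef2c/MAML share was 41.8% with none near, 71.6% at 400 to 800 bp and 59.7% without the chromosome 8 stretch and the chromosome 15 window. The Mef2c/p300 share was 15.6% at 400 to 800 bp. The share with an N1/RBP or N1/N1 fragment near was 37.6% at scores from the median up, 38.2% within 500 bp and 55.9% within 5000 bp. The number of members was 327 at scores from the median up, 632 with none near, 243 at 400 to 800 bp, 1922 when only absence from N1/RBP was asked and 2079 when only absence from N1/N1 was asked. The cause was not tested.

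The limit of 800 bp and the left-out places were chosen after seeing the data. Short members gave 39.7% for total FAIRE, 76.5% for Mef2c/MAML, 7.96% for Mef2c/p300 and 54.1% for nearness. The 311 long members gave 9.0% for total FAIRE, 2.89% each for Notch-dependent FAIRE and ChIP, 0.643% for Mef2c/MAML, 1.29% for Mef2c/p300 and 13.5% for nearness.

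No paired analysis was possible because the lists hold no value per library, and for the same reason leaving out each library in turn was not run. Absence from N1/RBP or N1/N1 means no score in the list and cannot be told apart from a signal under the authors' threshold. Depth is unknown.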
